A study of Mus musculus with 6 samples.

Results

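The cardiac gene set held 39 mouse genes of the heart muscle fibre and of cardiac specification, taken by exact symbol from expression tables of 51912 gene records, and every symbol matched 1 record. Of the 39 genes, 6 were measurable in all 6 libraries (at least 12 units of estimated count in each), 12 stayed under 12 units wherever they had any, 8 crossed that floor in some libraries, and 13 were at 0 in every library. Of the 7 members with enough units to be tested, 0 were called different between the scaffolds (edgeR, adjusted p under 0.05), against 0.862% of all genes tested. Of 12 defining cardiomyocyte genes, 1 was measurable in all 6 libraries, Tnni3, and 3 had 0 units throughout, Actc1, Myh7 and Myl7.

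The cells were bone marrow mononuclear cells (BMMNCs), the mixed leukocyte, progenitor and stromal fraction of marrow, from mice whose genotype the labels give as wild type (spelled WIDETYPE). They were grown for 10 days on hHVS (3 libraries) or on PCL (3 libraries) before messenger RNA sequencing. The labels do not spell out hHVS, and PCL commonly stands for polycaprolactone, a degradable polyester. They give no strain, age or sex of the mice. The series names cardiomyogenic differentiation in culture as one of its questions, and no heart or cardiomyocyte library was analysed here. Nothing in the labels says that libraries of a scaffold came from separate mice or cultures, so the spread behind every p-value here is that between libraries and may be technical.

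Heart muscle contracts when myosin of the thick filament pulls on actin of the thin filament, and the troponin complex on actin makes that pull depend on calcium. Titin, Z-disc and M-band proteins hold the filaments in register. During development a small group of transcription factors, among them Nkx2-5, Gata4, Tbx5, Hand2 and Isl1, specify cardiac progenitors and switch on these contractile genes.

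Library totals ran from 72098396 to 83610940 units, and 1 sequenced fragment was worth about 4 units. The floor of 12 units therefore stood for 3 fragments, or 0.144 to 0.166 CPM (units scaled to the library total) in a single library. A gene at 0 in all 3 libraries of a scaffold could still have had up to 0.0505 CPM over the hHVS group or 0.0545 CPM over the PCL group. These limits cover counting error only. A list of 12 macrophage genes (13 gene records) was measurable throughout and summed to between 21530 and 22150 CPM on hHVS, against 17380 to 19780 CPM on PCL. That gap in the sum lay in Lyz2, the lysozyme gene of myeloid cells. The other 11 genes summed to 8563 to 9186 CPM on hHVS and 8628 to 9411 CPM on PCL. Of the 13 records, edgeR called 0, and 6 had an unadjusted p under 0.05 (13.1% of all genes tested). Libraries did not overlap for 5 records higher on hHVS, Lyz2 among them, and 1 lower, Cd14 (20.6% of all genes tested). Of 12 defining cardiomyocyte genes 1 was measurable, Tnni3, and 3 were at 0 everywhere. Their sum was 1.38 to 1.95 CPM on hHVS and 1.69 to 2.12 CPM on PCL. In bulk RNA, fewer cells of a type and less RNA per cell cannot be told apart.

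By scaffold, the classes were alike in number at the upper end. On hHVS 6 members were measurable, 4 crossed the floor, 7 stayed near it and 22 were absent. On PCL 6 members were measurable, 5 crossed the floor, 10 stayed near it and 18 were absent. The 6 measurable members were shared by both scaffolds, and 13 members were absent from both. No member was measurable on 1 scaffold and absent from the other. In the whole table, 27.2% of gene records (53.3% of protein-coding ones) were measurable in all 6 libraries, against 15.4% of the members. Of the members 33.3% were absent, against 48.4% of all gene records and 28.1% of protein-coding ones.

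The number of members with any units was 16, 8 and 12 in hHVS replicates 1, 2 and 3, against 10, 12 and 17 in PCL replicates 1, 2 and 3. The libraries of the scaffolds overlapped, and the highest and lowest counts of members came from PCL replicate 3 and hHVS replicate 2. The share of all gene records with units differed little between libraries, from 40.2% to 40.9%. All 39 members together held 0.000559% to 0.000889% of a library's units on hHVS and 0.000634% to 0.000821% on PCL. The 6 measurable genes made up most of it, from 89.8% to 97.9% of member units on hHVS and from 77.9% to 93.8% on PCL. The lowest of these shares was that of PCL replicate 3, where the other 33 members together had 121 units.

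**Figure D1:**
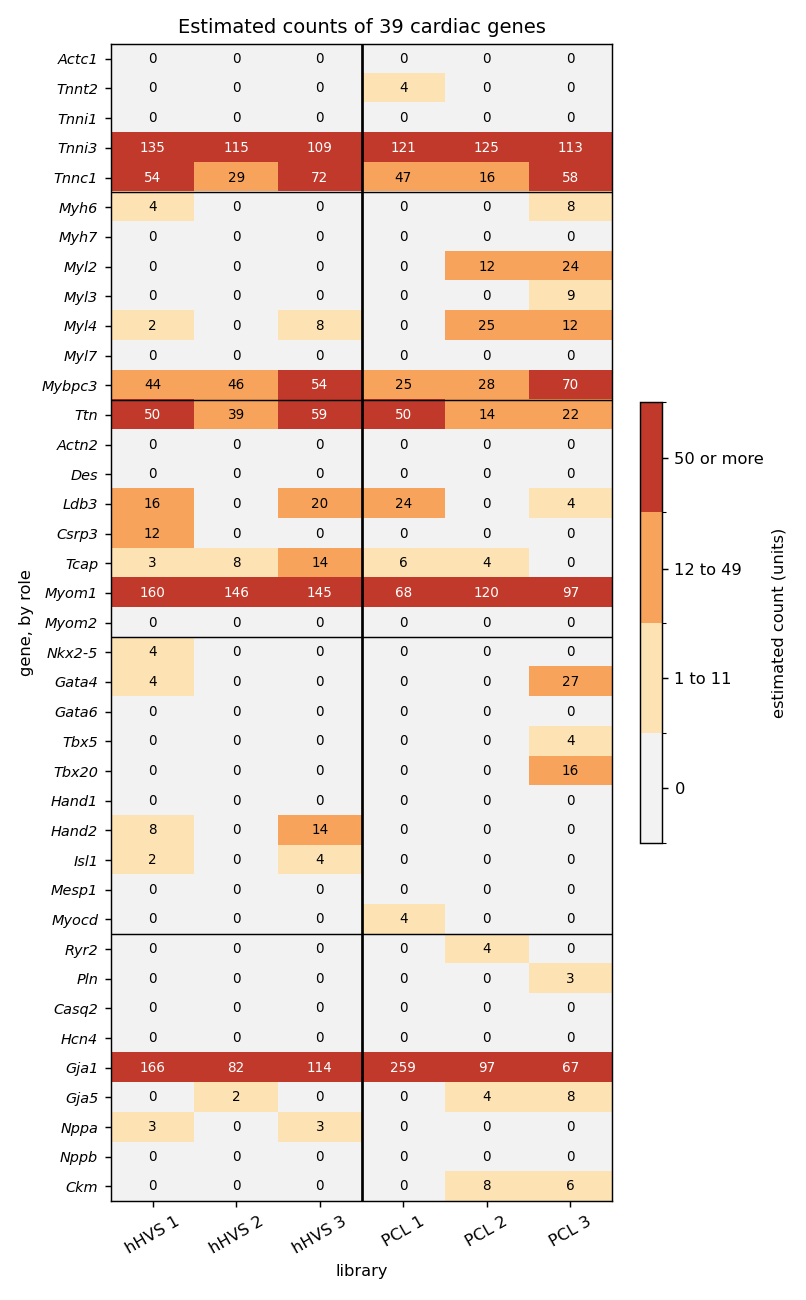
Estimated counts (units, printed in each cell and coloured by range) of the 39 members in rows, ordered by role, in the 3 hHVS libraries (left) and the 3 PCL libraries (right). Rows filled across all 6 columns are Tnni3, Tnnc1, Mybpc3, Ttn, Myom1 and Gja1, and most other cells hold 0.

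Promoter windows with a binding motif of muscle transcription factors were found in every detection class. RefSeq promoter windows (GRCm38.p6, 250 bases before to 50 after a start site) were found for 32 of the 39 genes, in 38 windows. Windows were searched on both strands for the CArG box, the binding site of serum response factor, for the MEF2 box, for TATAAA and for AGATAA, a form of the site of GATA factors. Both boxes can contain TATAAA. A CArG box stood in 7 of the 38 member windows (18.4%) and in 1.63% of all 32851 windows. A MEF2 box stood in 3 member windows (7.89%, against 3.19% of all), TATAAA in 6 (15.8%, against 13.6%) and AGATAA in 8 (21.1%, against 11.2%). The 6 genes with a CArG box came from every detection class: Actc1, Mesp1 and Myl7 were absent, Myl3 was near the floor, Ldb3 crossed it and Myom1 was measurable. A match is a description of letters and not of a bound site. One window of each class is shown, 5′ to 3′ on the strand of the gene, with the CArG box in capitals. They are Actc1 (chr2:114052826-114053125, minus strand), Myl3 (chr9:110763428-110763727, plus strand), Ldb3 (chr14:34588632-34588931, minus strand) and Myom1 (chr17:71019307-71019606, plus strand).
Actc1: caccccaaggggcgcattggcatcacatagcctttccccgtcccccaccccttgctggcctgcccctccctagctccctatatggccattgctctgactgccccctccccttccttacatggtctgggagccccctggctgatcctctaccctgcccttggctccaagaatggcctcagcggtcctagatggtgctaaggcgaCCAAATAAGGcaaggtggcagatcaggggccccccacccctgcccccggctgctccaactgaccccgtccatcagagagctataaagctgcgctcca
Myl3: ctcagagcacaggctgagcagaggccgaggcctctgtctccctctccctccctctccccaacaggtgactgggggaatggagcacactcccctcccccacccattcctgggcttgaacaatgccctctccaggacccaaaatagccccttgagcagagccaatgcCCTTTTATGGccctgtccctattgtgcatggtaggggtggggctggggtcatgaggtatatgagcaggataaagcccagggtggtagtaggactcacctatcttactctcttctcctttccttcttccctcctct
Ldb3: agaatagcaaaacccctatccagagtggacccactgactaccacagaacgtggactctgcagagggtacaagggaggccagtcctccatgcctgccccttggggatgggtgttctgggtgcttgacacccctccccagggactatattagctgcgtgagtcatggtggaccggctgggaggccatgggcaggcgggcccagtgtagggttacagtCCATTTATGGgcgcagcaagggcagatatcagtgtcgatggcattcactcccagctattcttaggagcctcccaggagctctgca
Myom1: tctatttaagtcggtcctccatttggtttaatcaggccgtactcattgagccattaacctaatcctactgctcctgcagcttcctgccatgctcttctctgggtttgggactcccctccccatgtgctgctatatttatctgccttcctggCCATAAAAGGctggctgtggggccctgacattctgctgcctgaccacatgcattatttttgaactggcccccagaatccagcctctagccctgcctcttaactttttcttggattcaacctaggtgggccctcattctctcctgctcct
The box began 47 bases before the start site in Actc1, 85 in Myl3, 35 in Ldb3 and 99 in Myom1. The gene of serum response factor itself, Srf, averaged 57.0 ± 1.22 TMM-adjusted CPM in hHVS libraries, against 58.4 ± 2.57 CPM in PCL libraries (SD, n = 3 each). The adjusted p of that difference was 0.873 (edgeR), with a log2 fold change of -0.03 ± 0.07 (SE). Srf was chosen for this mention after its values were seen.

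Of the thin filament genes, cardiac troponin I and troponin C were measured on both scaffolds while troponin T was not measurable. Tnni3, which encodes cardiac troponin I, the inhibitory subunit, had 135, 115 and 109 units in hHVS libraries, against 121, 125 and 113 units in PCL libraries. The PCL range lay inside the hHVS range. Its log2 fold change was -0.02 ± 0.23 (SE; 95% interval -0.55 to 0.51; adjusted p = 0.978, edgeR's quasi-likelihood test). Tnnc1, the calcium-binding troponin C of heart and slow muscle, had 54, 29 and 72 units on hHVS and 47, 16 and 58 units on PCL. Its log2 fold change was 0.36 ± 0.56 (95% interval -0.95 to 1.68; adjusted p = 0.824, edgeR), and the ranges of the scaffolds overlapped. Tnnt2, cardiac troponin T, which anchors the complex to tropomyosin, had 0 units in every hHVS library and, on PCL, 4 units in replicate 1 and 0 in the others. Tnni1, the slow troponin I of the fetal heart, and Actc1, cardiac alpha-actin, had 0 units in all 6 libraries.

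Per length, Tnni3 was at 0.654 ± 0.105 FPKM (fragments scaled to transcript length and library depth) on hHVS and 0.692 ± 0.0414 FPKM on PCL (SD, n = 3 each). Tnnc1 was at 0.569 ± 0.246 FPKM on hHVS and 0.461 ± 0.249 FPKM on PCL, a level that overlaps that of Tnni3. The highest level of Tnnt2 in any library was 0.00596 FPKM. Averaged over the 6 libraries, Tnni3 lay above 55.7% and Tnnc1 above 53.6% of the 26793 gene records with any units.

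Both genes overlap other annotated genes. Tnni3 (chr7:4518305-4524229, minus strand, GRCm38) shares 86 exonic bases, chr7:4524144-4524229 at the 5′ end of its gene model, with Dnaaf3, an axonemal dynein assembly gene on the same strand. Dnaaf3 had 180, 109 and 276 units on hHVS and 131, 175 and 201 units on PCL, and 1.69% of the 50-base words of Tnni3 transcripts also occur in other genes. The whole of Tnnc1 (chr14:31208312-31211729, plus strand) lies inside Nisch, an imidazoline receptor gene on the opposite strand, with no shared exonic base. Nisch was at 26.5 ± 0.924 FPKM on hHVS and 25.95 ± 2.82 FPKM on PCL. The library kit keeps strand, but the sources used here do not say whether the counting did, and the part of these neighbours in the values was not tested.

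Of the 7 thick filament genes, 1 was measurable. Mybpc3, cardiac myosin-binding protein C, had 44, 46 and 54 units on hHVS and 25, 28 and 70 units on PCL. The lowest and the highest library were both PCL libraries, so the groups overlapped. Its log2 fold change was 0.21 ± 0.47 (SE; 95% interval -0.88 to 1.30; adjusted p = 0.879, edgeR). Mybpc3 (chr2:91118144-91136516, plus strand) begins 2387 bases past the end of Spi1, the gene of the myeloid transcription factor PU.1, on the same strand. Spi1 was at 115 ± 4.29 FPKM on hHVS and 137 ± 10.4 FPKM on PCL, while Mybpc3 was at 0.131 ± 0.0150 FPKM on hHVS and 0.119 ± 0.0726 FPKM on PCL (SD, n = 3 each). Another gene, Madd, lies 843 bases downstream of Mybpc3 on the opposite strand. Madd was at 9.277 ± 0.1775 FPKM on hHVS and 9.803 ± 0.2649 FPKM on PCL. The part of reads from either neighbour was not tested.

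The motor and light chain genes of the thick filament were at or near 0. Myh7, the beta myosin heavy chain, and Myl7, the atrial regulatory light chain, had 0 units in all 6 libraries. Myh6, the alpha heavy chain of the adult mouse heart, had 4, 0 and 0 units on hHVS and 0, 0 and 8 units on PCL. Light chain genes had units mainly in PCL replicates 2 and 3. Myl2, the ventricular regulatory light chain, had 0 units in all 3 hHVS libraries and 0, 12 and 24 units in PCL replicates 1, 2 and 3. Myl4, the atrial essential light chain, had 2, 0 and 8 units on hHVS and 0, 25 and 12 units on PCL. Myl3, the ventricular essential light chain, had 9 units in PCL replicate 3 and 0 elsewhere. With no filter on low counts Myl2 had an unadjusted p of 0.0312 and an adjusted p of 0.479 (edgeR). Of the 26 members in that fit, 2 had an unadjusted p under 0.05 (Myl2 and Hand2), against 2418 of all 26793 genes. A list of 20 skeletal muscle genes summed to 3.14 to 4.13 CPM on hHVS and 4.41 to 6.72 CPM on PCL, with 2 of the 20 measurable in all 6 libraries and 6 at 0 everywhere. That gap lay in Tnni2, fast skeletal troponin I: the other 19 genes summed to 1.21 to 1.70 CPM on hHVS and 1.19 to 1.75 CPM on PCL. Tnni2 itself was not called (log2 fold change -0.76 ± 0.28, unadjusted p = 0.0260, adjusted p = 0.293, edgeR). Its libraries did not overlap, as in 20.6% of all genes tested. The part of skeletal muscle RNA in the light chain values was not tested.

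**Figure D2:**
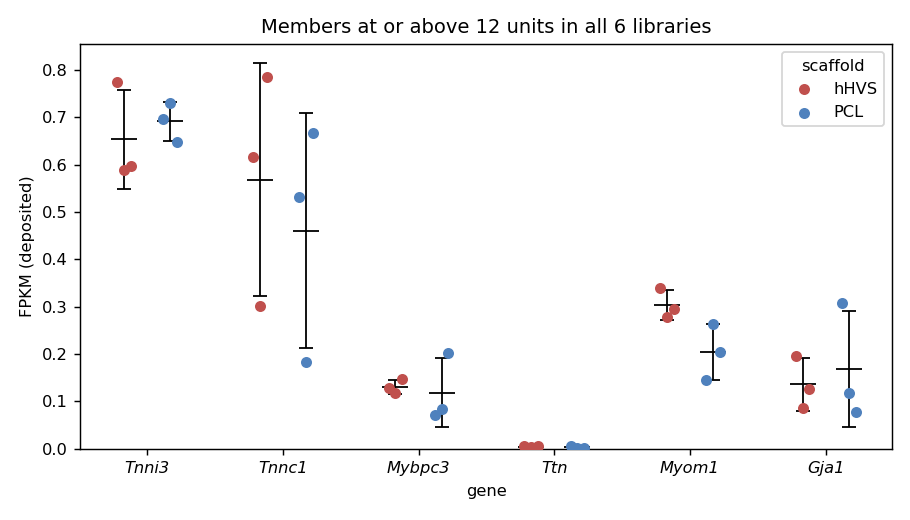
FPKM of the 6 members measurable in every library (gene on the x axis). Each point is 1 library, red for hHVS (left of each pair) and blue for PCL, and black bars give mean and SD (n = 3). Tnni3 and Tnnc1 lie highest and Ttn lies near 0, and of the 6 genes Myom1 has no overlap between scaffolds.

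**Figure D3:**
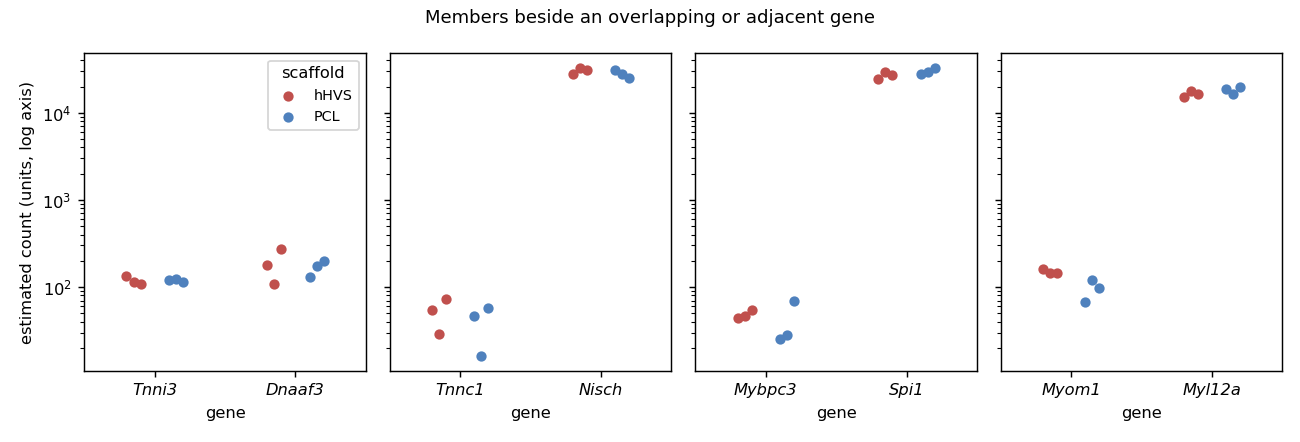
Estimated counts (units, log axis) of 4 measurable members and of a gene that overlaps them (Dnaaf3, Nisch, Myl12a) or ends just upstream (Spi1). Each point is 1 library, red for hHVS and blue for PCL. Nisch, Spi1 and Myl12a lie far above the member beside them.

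Among the genes of the Z-disc, titin and M-band, Myom1 was the member whose libraries separated the scaffolds. Myom1 encodes myomesin, which links thick filaments at the M-band. It had 160, 146 and 145 units on hHVS, against 68, 120 and 97 units on PCL, and every hHVS library was above every PCL library. The log2 fold change was 0.63 ± 0.28 (SE), with a 95% interval of -0.02 to 1.29 and an adjusted p of 0.396 (edgeR), so it did not pass. The level was 0.304 ± 0.0323 FPKM on hHVS and 0.205 ± 0.0596 FPKM on PCL (SD, n = 3 each). Such separation was common over the table: in 20.6% of the 16364 genes tested the libraries of the scaffolds did not overlap, with hHVS higher in 10.7% and lower in 9.89%. Myom1 (chr17:71002633-71126856, plus strand) shares 207 exonic bases, chr17:71002672-71002878 near the 5′ end of its gene model, with Myl12a, a nonmuscle myosin light chain gene on the opposite strand. Myl12a had 15183, 17897 and 16375 units on hHVS and 18585, 16566 and 19894 units on PCL. Its part in the Myom1 values was not tested.

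Titin was detected at a trace. Ttn, the giant gene of the elastic filament, had 50, 39 and 59 units on hHVS and 50, 14 and 22 units on PCL, with PCL replicate 1 inside the hHVS range. Its log2 fold change was 0.77 ± 0.53 (95% interval -0.46 to 2.01; adjusted p = 0.584, edgeR). Because its exons cover 116825 bases, this came to 0.00481 ± 0.00114 FPKM on hHVS and 0.00297 ± 0.00195 FPKM on PCL. That level was above 8.99% of the gene records with any units.

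The other Z-disc and M-band genes were at or around the floor. Ldb3, a Z-disc PDZ protein gene, had 16, 0 and 20 units on hHVS and 24, 0 and 4 units on PCL. It was tested because 3 libraries held enough, with a log2 fold change of 0.39 ± 1.47 (95% interval -3.05 to 3.83; adjusted p = 0.939, edgeR). Tcap, the titin cap protein gene telethonin, had 3, 8 and 14 units on hHVS and 6, 4 and 0 units on PCL, in 5 of the 6 libraries. Csrp3, the muscle LIM protein gene, had 12 units in hHVS replicate 1 and 0 elsewhere. Actn2, sarcomeric alpha-actinin, Des, the muscle intermediate filament desmin, and Myom2, a second myomesin gene, had 0 units in all 6 libraries.

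None of the 10 cardiogenic transcription factor genes was measurable on either scaffold. Gata6, Hand1 and Mesp1, which act in early heart and mesoderm formation, had 0 units in all 6 libraries. Nkx2-5, a homeobox factor of cardiac progenitors, had 4 units in hHVS replicate 1, about 1 fragment, and 0 elsewhere. Hand2, a bHLH factor of the right ventricle, had 8, 0 and 14 units on hHVS and 0 units in all 3 PCL libraries. With no filter on low counts its unadjusted p was 0.0433 and its adjusted p 0.535 (edgeR). In that fit 2418 of 26793 genes had an unadjusted p under 0.05. Isl1, a marker of second heart field progenitors, had 2, 0 and 4 units on hHVS and 0 units in all 3 PCL libraries. On PCL, replicate 3 held units of 3 factors: Gata4 had 27 units there, Tbx20 had 16 and Tbx5 had 4. In the other PCL libraries these 3 genes had 0 units, and on hHVS 4 units of Gata4 in replicate 1 were all. Myocd, a coactivator of serum response factor, had 4 units in PCL replicate 1 and 0 elsewhere. Summed over the 10 genes, the level was 0 to 0.24 CPM on hHVS and 0 to 0.634 CPM on PCL, with 0 in both hHVS replicate 2 and PCL replicate 2. Of the 9 members with units in a single library, 4 had them in PCL replicate 3 (Myl3, Tbx5, Tbx20 and Pln). A list of 7 epicardial and mesothelial genes summed to at most 0.0533 CPM on hHVS and 0.111 CPM on PCL, below the floor of any single library, and Wt1, its defining factor, had 0 units throughout.

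Of the genes of calcium release, conduction, peptide hormones and creatine kinase, 1 of 9 was measurable, the connexin gene Gja1. Gja1 encodes connexin 43, the gap junction protein of working heart muscle, which many other cell types also make. It had 166, 82 and 114 units on hHVS, against 259, 97 and 67 units on PCL, and the hHVS range lay inside the PCL range. The log2 fold change was -0.22 ± 0.54 (SE; 95% interval -1.48 to 1.03; adjusted p = 0.893, edgeR), and the level was 0.136 ± 0.0556 FPKM on hHVS and 0.168 ± 0.123 FPKM on PCL (SD, n = 3 each). Without PCL replicate 1, the highest library, the log2 fold change was 0.54 (adjusted p = 0.614, edgeR).

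Gja1 was highest in the libraries where the summed level of stromal genes was highest. The summed level of 11 stromal fibroblast genes was 78.1, 16.5 and 56.3 CPM in hHVS replicates 1, 2 and 3, against 194, 53.2 and 57.6 CPM in PCL replicates 1, 2 and 3. That of 8 smooth muscle and myofibroblast genes was 23.9, 4.46 and 11.2 CPM on hHVS, against 46.0, 10.9 and 6.92 CPM on PCL. PCL replicate 1 and then hHVS replicate 1 led in Gja1 and in the sums of both lists. Col1a1, Col1a2, Pdgfrb and Postn followed the same order, in TMM-adjusted CPM, and the other stromal genes of the list did not. Dcn and Thy1 were lowest in hHVS replicate 1 (0.306 and 0.0278 CPM), and Col3a1 was highest in PCL replicate 3 (9.55 CPM). These genes, apart from Col1a2, were named after their values were seen. Of the stromal list 9 of 11 genes were tested and all 9 had a negative log2 fold change (median -1.11). Of these 9, 0 were called by edgeR and 4 had an unadjusted p under 0.05, against 13.1% of all genes tested. Libraries did not overlap for 4 of the 9, all lower on hHVS, against 9.89% of all genes tested. Col1a2, a fibrillar collagen chain with the highest CPM of the list over the 6 libraries, averaged 16.5 ± 11.05 CPM in hHVS libraries, against 32.1 ± 31.1 CPM in PCL libraries (TMM-adjusted, SD, n = 3 each). The smooth muscle gene with the highest CPM, Acta2, averaged 8.63 ± 6.44 CPM on hHVS and 12.1 ± 12.1 CPM on PCL. The part of such cells in the Gja1 values was not tested.

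**Figure D4:**
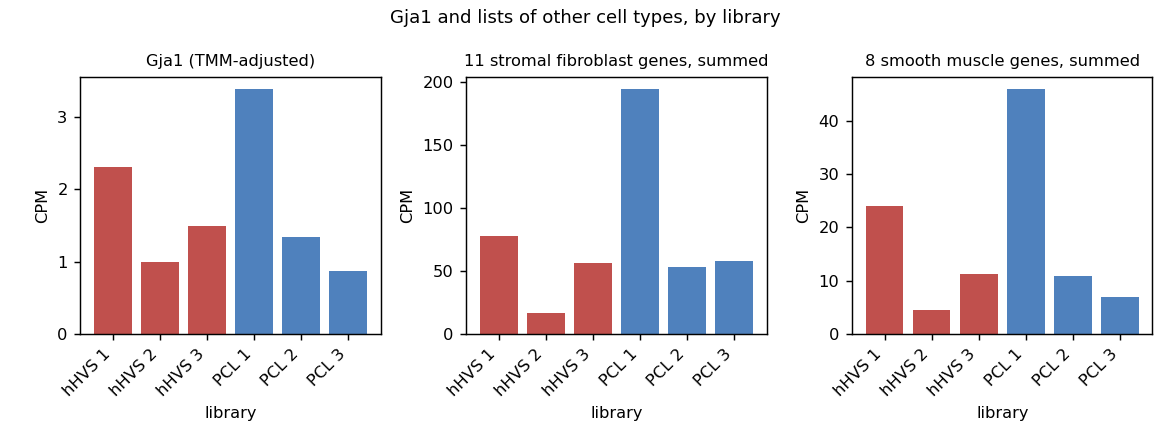
Bars give CPM per library, hHVS in red and PCL in blue: Gja1 (TMM-adjusted), the sum of 11 stromal fibroblast genes and the sum of 8 smooth muscle and myofibroblast genes (both unadjusted). PCL replicate 1 is highest and hHVS replicate 1 second in all 3 panels.

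The remaining genes of that group were absent or near the floor. Casq2, the calcium store protein calsequestrin, Hcn4, the pacemaker channel, and Nppb, a natriuretic peptide, had 0 units in all 6 libraries. Ryr2, the cardiac calcium release channel, had 4 units in PCL replicate 2 and 0 elsewhere, and Pln, phospholamban, had 3 units in PCL replicate 3 and 0 elsewhere. Nppa, the atrial natriuretic peptide gene, had 3, 0 and 3 units on hHVS and 0 units in all 3 PCL libraries. Ckm, muscle creatine kinase, had 0 units in all 3 hHVS libraries and 0, 8 and 6 units on PCL. Gja5, connexin 40, had 0, 2 and 0 units on hHVS and 0, 4 and 8 units on PCL. None of these genes had enough units to pass the filter of the test. With no filter on low counts, Ckm had the lowest p among them (unadjusted p = 0.0544, adjusted p = 0.563, edgeR).

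Of the 39 members, 7 had enough units to be tested, and 0 were called higher or lower by edgeR at an adjusted p under 0.05. Of all genes tested 0.862% were called, 0.562% higher and 0.299% lower on hHVS. With library totals in place of TMM scaling, the balance turned: 71 genes were called higher and 74 lower, where TMM scaling gave 92 higher and 49 lower. DESeq2 and limma-voom also called 0 members, where they called 4.69% and 0.776% of all genes. At an unadjusted p under 0.05, 0 members passed in edgeR, against 13.1% of all genes. The log2 fold change was positive for 5 and negative for 2 of the 7, with a median of 0.36 beside -0.01 over all genes tested. That median stands for the 7 tested genes and not for the 39. The 95% intervals of Tnni3 and Myom1 were the narrowest, and that of Ldb3 covered more than 3 units on either side of 0.

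**Figure D5:**
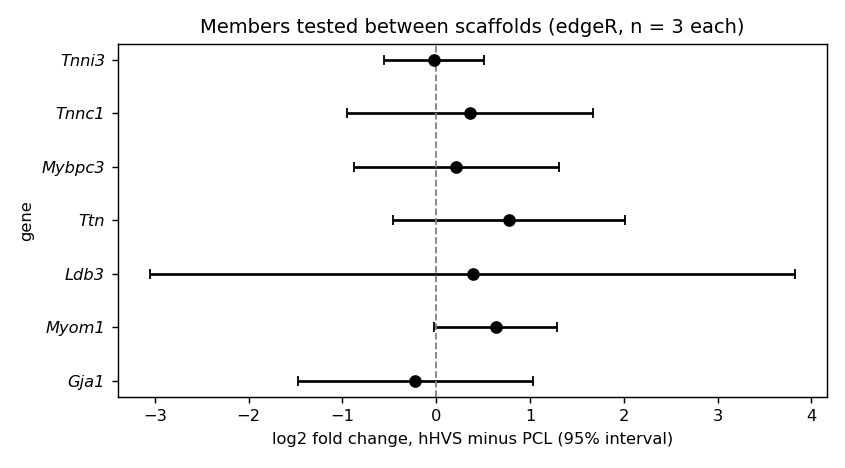
Log2 fold change (hHVS minus PCL, x axis) of the 7 members with enough units to be tested (y axis). Points are edgeR estimates with 95% intervals (n = 3 libraries each), and the dashed line marks no difference. Every interval crosses 0, from the narrow one of Tnni3 (-0.55 to 0.51) to the wide one of Ldb3 (-3.05 to 3.83).

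Of 45 other heart and muscle genes tested, in 4 lists, edgeR called 0. Of 32 other sarcomere and muscle structural genes, 15 were tested, 11 were measurable in all 6 libraries and 8 were at 0 everywhere. Summed per length they came to 105 to 122 FPKM on hHVS and 126 to 139 FPKM on PCL. In CPM the sums were 727 to 844 on hHVS and 877 to 970 on PCL. Without the tropomyosin gene Tpm3, the other 31 genes summed to 253.6 to 267.3 CPM on hHVS and 259.5 to 325 CPM on PCL. Those ranges overlapped. The log2 fold change was negative for 12 of the 15 (median -0.12), 0 were called by edgeR, DESeq2 or limma-voom, and 1 had an unadjusted p under 0.05 in edgeR. That gene was Pdlim5, a Z-disc and cytoskeletal adaptor, which averaged 121 ± 2.98 CPM in hHVS libraries, against 139 ± 8.94 CPM in PCL libraries. Its adjusted p was 0.307 (edgeR; log2 fold change -0.20 ± 0.07). It was named after its values were seen. The gene of the list with the highest CPM, the broadly expressed tropomyosin Tpm3, averaged 546 ± 48.0 CPM in hHVS libraries, against 594 ± 32.0 CPM in PCL libraries (adjusted p = 0.596, edgeR).

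Of 23 other cardiac calcium and ion channel genes, 10 were tested and 7 were at 0 everywhere. None was called by edgeR, DESeq2 or limma-voom, and 0 had an unadjusted p under 0.05 in edgeR (median log2 fold change -0.05). The highest in CPM was the calcium pump gene Atp2a2, with a log2 fold change of 0.16 ± 0.08 and an adjusted p of 0.44 (edgeR). Its level was 36.3 ± 1.71 FPKM on hHVS and 34.1 ± 2.53 FPKM on PCL, and the libraries overlapped in FPKM. In TMM-adjusted CPM they did not overlap, as in 20.6% of all genes tested. The margin was narrow: the lowest hHVS library was at 239.97 CPM and the highest PCL library at 239.49 CPM.

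Of 28 other cardiogenic regulators, 13 were tested, 7 were at 0 everywhere and 0 were called by edgeR, DESeq2 or limma-voom (0 at an unadjusted p under 0.05 in edgeR; median log2 fold change -0.08). Mef2a, a partner of cardiac transcription factors that is also widely expressed, had the highest CPM and averaged 254 ± 5.79 CPM in hHVS libraries, against 268 ± 49.48 CPM in PCL libraries (adjusted p = 0.842, edgeR). Per length Mef2d, a related factor, was higher, at 27.8 ± 0.635 FPKM on hHVS and 27.6 ± 2.60 FPKM on PCL, where Mef2a was at 15.3 ± 0.193 FPKM on hHVS and 16.97 ± 3.45 FPKM on PCL. Of 11 muscle and heart metabolism genes, 7 were tested, 1 was at 0 everywhere and 0 were called by any of the 3 tools (0 at an unadjusted p under 0.05 in edgeR; median log2 fold change 0.08). The muscle enolase gene Eno3, the highest of them in CPM, averaged 3.86 ± 1.015 CPM in hHVS libraries, against 4.32 ± 0.406 CPM in PCL libraries (adjusted p = 0.795, edgeR). Per length Cox6a2, a muscle subunit of cytochrome c oxidase, was higher, at 3.74 ± 0.744 FPKM on hHVS and 3.74 ± 2.02 FPKM on PCL, where Eno3 was at 1.95 ± 0.539 FPKM on hHVS and 2.29 ± 0.252 FPKM on PCL. Mef2d and Cox6a2 were named after their values were seen.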

How the data were processed

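The authors deposited 2 tables of 51912 Ensembl gene records for 6 libraries: estimated counts, labelled raw counts, and FPKM. Both were built on mm10, and FastQC, MultiQC, STAR and featureCounts were used, per the submitters' processing notes; the sources used here do not say which tool made each table, or the versions. The deposited counts are whole numbers, yet they behave as rounded estimates: the value 4 fills 6544 cells, against 2701 for 3 and 1483 for 5, so 1 fragment was taken as about 4 units. The values 1 (6904 cells) and 2 (3737 cells) are also common and stand for less than 1 whole fragment, so the conversion and the floor of 3 fragments are approximate. Units overstate fragments, and counting noise was left to the dispersion between replicates. The tests had been chosen for counts and were kept.

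Genes were filtered with filterByExpr (minimum count 10), scaled with TMM factors (0.959 to 1.05) and compared, hHVS minus PCL, by edgeR's quasi-likelihood test (edgeR 4.0.16, R 4.3.3) in a model of group alone. P-values were adjusted by the Benjamini-Hochberg method over all 16364 genes tested, at a threshold of 0.05. Standard errors were derived from the F statistic and intervals from the total degrees of freedom of its test (residual plus prior). In data simulated for this comparison 16185 genes were fitted, and changes were placed in genes averaging at least 100 units. Of 100 genes changed by a log2 of 1, 73 were recovered, and of 100 changed by a log2 of 2, 97. At the same threshold 14 unchanged genes were called. Tnnc1, Mybpc3, Ttn and Ldb3 averaged fewer units, with at most 72 in any library, so these recovery rates do not cover them. DESeq2 1.42.0, limma 3.58.1 (voom, and log2 of FPKM with a pseudocount of 0.1 or 1) and other settings were alternatives. Gene positions are those of GENCODE M21 (GRCm38, which mm10 also is), matched by identifier for 99.5% of records and all 39 members.

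The members, lists and tests were chosen with earlier results of these data known. All 39 members were described. Of each other list, the text took genes past the threshold (at most 5) and the most abundant gene by CPM; other genes are marked as named after their values were seen. Detection classes were set per scaffold and over all libraries: absent (0 in every library), near the floor (under 12 units in every library), measurable (12 units or more in every library) or crossing the floor. The labels name no batch.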

Additional observations from a re-analysis of the deposited data

How the results depend on the processing

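The count of members called was 0 under all 14 planned and 2 added alternatives, and so was that of the 4 other heart and muscle lists. Members measurable in every library ranged from 4 (floor of 24 units) to 6, and absent members from 13 to 17 (without PCL replicate 3). The count of genes called over the whole table, 141, was less stable: 767 with DESeq2, 76 with no filter on low counts, 84 with limma on log2(FPKM + 0.1) and 21 with that and no filter, and from 32 to 154 with 1 library left out. Leaving out both PCL replicate 3 and hHVS replicate 2, an alternative chosen after seeing the data, gave 66.

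With the replicate number as a block it was 36, and 0 members were called. Deviations of libraries with the same number correlated at 0.12, -0.01 and -0.06 for numbers 1, 2 and 3, so the numbers were not taken to pair the samples.

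Signs of uncalled members turned when 1 library was left out, and the cause was not tested. With each library left out in turn, Mybpc3 ranged from -0.046 (without PCL replicate 1) to 0.81. Ldb3 ranged from -0.18 (without PCL replicate 2) to 2.54, and was -0.15 without hHVS replicate 3. Tnnc1 ranged from -0.0014 (without PCL replicate 2) to 0.70. Tnni3 ranged from -0.17 to 0.057 (without hHVS replicate 2), and was 0.04 without hHVS replicate 3 or PCL replicate 2. Gja1 ranged from -0.58 to 0.54 (without PCL replicate 1), and was 0.03 without hHVS replicate 2. Myom1 and Ttn stayed positive under all 16 alternatives (Myom1 0.12 to 0.87; Ttn 0.0026 to 1.43). The floor of about 3 fragments per library limits the 33 other members.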
